A study of Rattus norvegicus with 60 samples.

Results

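Myoc, Nnat, Necab1, Lgals12 and Fndc1 are 5 genes that are low in the tissue of a rat knee 24 h after a bleed into the joint. They were chosen as large decreases in bled knees, so their differences between bled and other knees are described here and not tested. Slopes and correlations with fat, given further on, were tested over groups that include the bled knees. Each gene is represented by the probe set with its symbol alone in the array annotation and, where there was more than 1, the highest mean; they are 5 of 18166 named genes on the array. The working name called them stromal genes of the knee. Whether this name holds was not tested. Lgals12, and in the lymph node Nnat, had a called slope on the fat RNA of the tissue, as described further on. Such a slope does not show which cells express a gene.

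The genes encode proteins with different places in or around the cell. Myocilin, the product of Myoc, is a secreted glycoprotein with an olfactomedin domain, known best from the trabecular meshwork of the eye and from inherited glaucoma. Fndc1 encodes a protein with fibronectin type III domains, a fold shared with many matrix proteins. Galectin-12, the product of Lgals12, is a sugar-binding lectin of adipocytes that sits on lipid droplets and restrains lipolysis. Neuronatin, the product of Nnat, is a small proteolipid of the endoplasmic reticulum membrane; its gene is imprinted, with the paternal copy active, and is expressed in neurons, endocrine cells and fat. Necab1 encodes a calcium-binding protein with an EF-hand motif, described mainly in neurons. The tissue inside a knee holds the synovial lining, fibroblasts, vessels, nerve endings and a fat pad, so bulk RNA from it mixes all of these cells.

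All 20 rats had haemophilia A, the deficiency of coagulation factor VIII, and they were killed 24 h after the procedure. In 11 rats a bleed was induced in the left knee; the right knee of the same rats is the contralateral joint. The other 9 rats had a sham procedure, and their right knee was sampled. Each joint gave 1 Affymetrix array of its inner tissue and 1 of its popliteal node, a lymph node into which the knee drains, with 11 bled, 11 contralateral and 7 sham knees, and 11, 11 and 9 nodes on the same sides. RNA from 2 sham knees was too scarce for an array. Every bled joint was a left one and every other joint a right one, so side cannot be told apart from the bleed, nor can the injury that started it; strain, sex and age were not used here.

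The values are log2 expression values, so a difference of 1 is a 2-fold change. The tissues matched their labels: the mean log2 value of 11 B and T cell genes lay between 10.04 and 10.66 in nodes and between 5.46 and 7.29 in knees. The mean of 15 skeletal muscle genes ranged from 5.55 to 12.10 over the knees, in every group from near the floor to high values, and from 5.52 to 6.09 over the nodes. Of 36685 probe sets, limma called 34.7% between bled and contralateral knees (15.2% lower and 19.5% higher in bled knees) and 38.7% between bled and sham knees, at a Benjamini-Hochberg adjusted p under 0.05.

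The RefSeq promoter table for assembly GRCr8 held the starts of 2 of the 5 genes, Myoc and Fndc1. The 250 bases before each start are shown for these because no start of the other genes was held. In the knee their levels moved together most closely among the chosen genes (r = 0.88, and 0.74 without the bled knees of rats K1 and K10). In the node r was 0.10. Both genes are low there and little could be seen, so this is not read as a difference between the tissues. Myoc starts on the plus strand after chr13:77509713-77509962 and Fndc1 on the plus strand after chr1:49686606-49686855; Fndc1 has 2 listed starts, and the upstream one was taken. Capitals mark matches to the motifs searched.
Myoc: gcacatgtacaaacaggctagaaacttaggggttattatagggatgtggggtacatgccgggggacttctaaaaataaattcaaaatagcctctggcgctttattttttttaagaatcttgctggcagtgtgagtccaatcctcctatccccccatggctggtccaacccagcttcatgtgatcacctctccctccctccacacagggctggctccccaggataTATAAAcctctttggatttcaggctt
Fndc1: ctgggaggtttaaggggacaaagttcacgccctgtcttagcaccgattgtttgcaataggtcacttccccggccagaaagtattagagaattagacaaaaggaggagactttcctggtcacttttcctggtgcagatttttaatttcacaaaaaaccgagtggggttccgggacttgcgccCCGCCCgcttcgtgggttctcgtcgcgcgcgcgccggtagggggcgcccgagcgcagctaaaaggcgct
The motifs were the TATA box TATAAA, the GC box GGGCGG, the E-box CACGTG, the AP-1 site TGANTCA and a C/EBP-like site TTGCNNAA, each on both strands. The Myoc sequence holds 1 match to TATAAA, 26 bases before the start, which 13.1% of 27457 promoters of the same length hold. The Fndc1 sequence holds 1 match to GGGCGG, on the reverse strand and 69 bases before the start, a motif in 32.4% of promoters. Neither sequence matched the E-box, the AP-1 site or the C/EBP-like site, which 5.78%, 6.33% and 9.21% of promoters hold. The Myoc promoter is poor in CpG, with 2 such dinucleotides against a median of 6 over all promoters and a GC content of 47.2%. The Fndc1 promoter has 20 CpG and a GC content of 55.2%, and 82% of promoters have fewer CpG. The 2 sequences therefore share none of the motif matches, and these matches describe the letters only.

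In bled knees all 5 genes were 12.5-fold to 20.2-fold lower than in contralateral knees, and 7.03-fold to 22.6-fold lower than in sham knees. In each gene every bled knee lay below every contralateral and every sham knee. Of all probe sets, 5.61% had every bled knee below every contralateral knee and 5.11% had every bled knee below every sham knee; since the genes were chosen on these contrasts, nothing is read from their number. In bulk tissue, fewer cells of a type and less RNA per cell cannot be told apart.

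**Figure D1:**
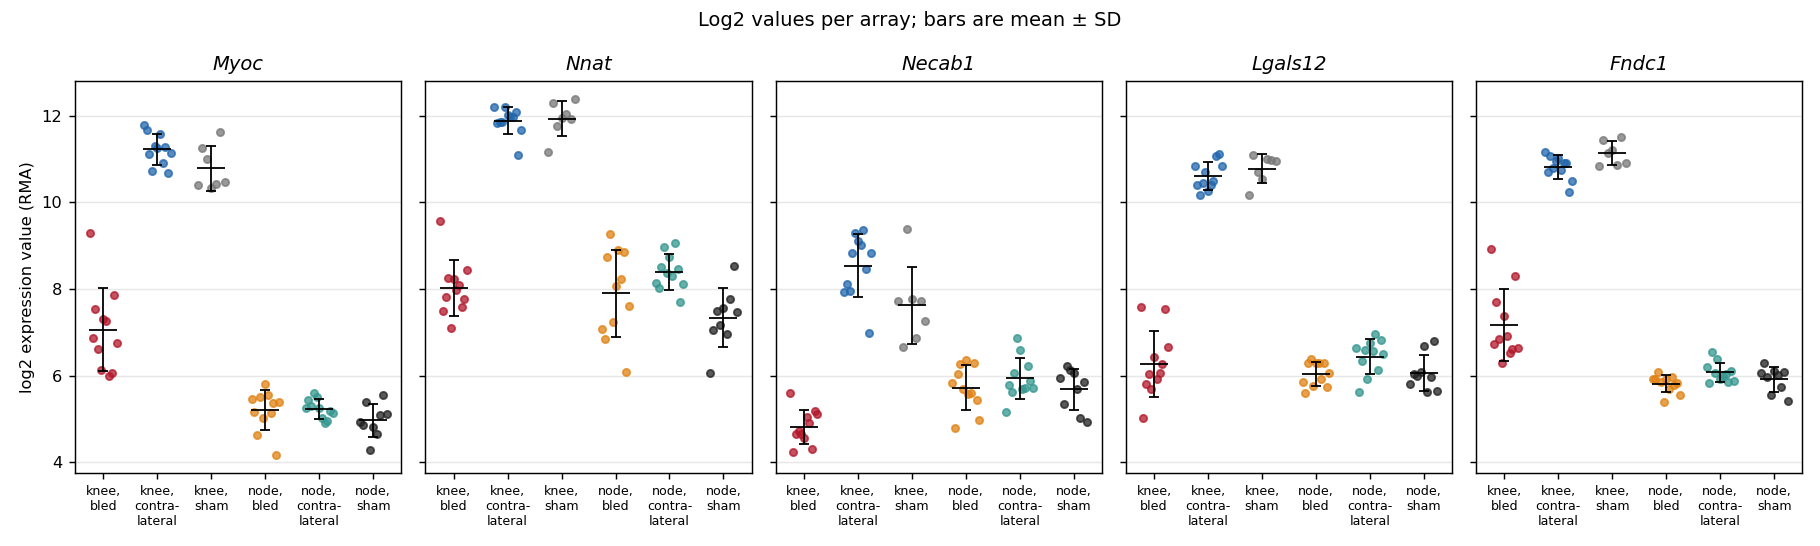
Log2 expression values of the 5 genes, 1 point per array, in bled, contralateral and sham knees and nodes; horizontal bars are group means and error bars SD (n = 11, 11 and 7 knees and 11, 11 and 9 nodes). In every panel the bled knees sit below the other knees, and for Myoc, Nnat, Lgals12 and Fndc1 the unbled knees sit far above the nodes.

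Myoc was measured at log2 values of 5.99 to 9.29 in bled knees (median 6.86), 10.68 to 11.78 in contralateral knees (median 11.25) and 10.33 to 11.63 in sham knees (median 10.46). The groups did not overlap, with a gap of 1.39 between the highest bled and the lowest contralateral knee and 1.04 to the lowest sham knee. The means were 7.06 ± 0.96 (SD, n = 11), 11.22 ± 0.36 (n = 11) and 10.79 ± 0.51 (n = 7). The bled knees differed from the contralateral knees by −4.16 ± 0.28 (SE; 17.9-fold lower) and from the sham knees by −3.73 ± 0.31 (13.3-fold lower).

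Fndc1 ranged from 6.28 to 8.93 in bled knees (median 6.85), from 10.23 to 11.16 in contralateral knees (median 10.90) and from 10.83 to 11.51 in sham knees (median 11.15). The bled values spread widely and the others narrowly: the SD was 0.83 around a mean of 7.17 (n = 11) in bled knees, against 0.27 around 10.82 (n = 11) and 0.28 around 11.13 (n = 7). The difference of bled from contralateral knees was −3.65 ± 0.23 (SE; 12.5-fold lower), and that from sham knees −3.96 ± 0.26 (15.6-fold lower). The nearest bled and unbled values were 1.30 apart.

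Lgals12 had the widest gap of the 5 genes between the groups. It was measured at 5.03 to 7.58 in bled knees (median 6.05), 10.18 to 11.12 in contralateral knees (median 10.50) and 10.16 to 11.10 in sham knees (median 10.96). The means were 6.27 ± 0.76 (SD, n = 11), 10.61 ± 0.32 (n = 11) and 10.78 ± 0.33 (n = 7). Its difference was −4.34 ± 0.22 (SE; 20.2-fold lower) against contralateral knees and −4.50 ± 0.25 (22.6-fold lower) against sham knees. No value of any knee fell in the 2.58 log2 units between the highest bled knee and the lowest sham knee.

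Nnat ranged from 7.09 to 9.58 in bled knees (median 7.98), from 11.10 to 12.21 in contralateral knees (median 11.98) and from 11.17 to 12.39 in sham knees (median 11.95). Both unbled groups lay at almost the same level, with means of 11.89 ± 0.31 (SD, n = 11) and 11.93 ± 0.40 (n = 7), above a bled mean of 8.03 ± 0.64 (n = 11). The difference was −3.86 ± 0.20 (SE; 14.5-fold lower) against contralateral knees and −3.91 ± 0.22 (15.0-fold lower) against sham knees. A second, dimmer probe set of Nnat went the same way, at 5.33 ± 0.14 in bled, 6.87 ± 0.47 in contralateral and 7.06 ± 0.52 in sham knees, and its bled values (5.13 to 5.56) also lay below all others.

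Necab1 varied more than the other genes among the unbled knees. It was measured at 4.23 to 5.59 in bled knees (median 4.71), 6.99 to 9.35 in contralateral knees (median 8.82) and 6.67 to 9.38 in sham knees (median 7.72). The means were 4.81 ± 0.40 (SD, n = 11), 8.54 ± 0.72 (n = 11) and 7.63 ± 0.89 (n = 7), a difference of −3.72 ± 0.27 (SE; 13.2-fold lower) against contralateral and −2.81 ± 0.31 (7.03-fold lower) against sham knees. All 11 bled values were below the median of their array, where background light can hide part of a fall. Its mean in bled knees was also below those of the bled, contralateral and sham nodes (5.71, 5.94 and 5.69), with values that overlapped, a difference that was not tested.

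Within each of the 11 rats, the bled knee was lower than the contralateral knee of the same animal for all 5 genes. The difference within a rat ran from −5.21 to −2.49 for Myoc (median −4.33), from −4.68 to −1.93 for Fndc1 (median −3.86) and from −5.36 to −3.25 for Lgals12 (median −4.41). It ran from −5.10 to −2.63 for Nnat (median −3.89) and from −4.65 to −1.80 for Necab1 (median −3.97). Rats K1 and K10 had the smallest falls for 4 of the 5 genes, all but Nnat. The bled knees of these rats also held the highest values of a fat index, the mean log2 value of 22 adipocyte genes that include none of the chosen genes: 9.18 in K1 and 9.09 in K10, against at most 8.72 in the other bled knees. K1 was high in every gene, with Myoc at 9.29, Fndc1 at 8.93, Lgals12 at 7.58, Nnat at 9.58 and Necab1 at 5.59. K10 was high in Fndc1 (8.30), Lgals12 (7.53), Myoc (7.85) and Necab1 (5.19) but not in Nnat (7.76).

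**Figure D2:**
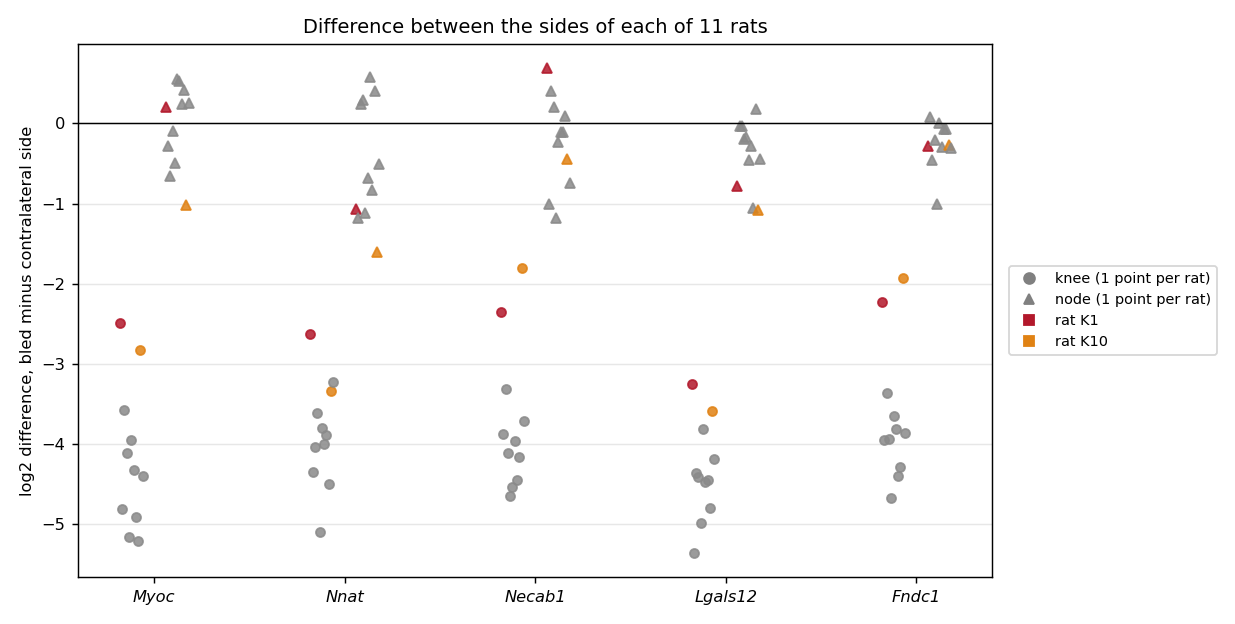
Difference in log2 value between the bled and the contralateral side of each of 11 rats, for knees (circles) and nodes (triangles), with rats K1 and K10 in colour. Every knee difference is below 0, the smallest falls of Myoc, Necab1, Lgals12 and Fndc1 belong to K1 and K10, and the node differences lie near or on both sides of 0.

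Contralateral against sham knees asks whether a joint that did not bleed differs from the joint of a rat without any bleed. The choice of genes did not use this contrast itself. It did use the levels of these unbled knees as the reference for the bled ones, so the test is not independent of the choice. None of the 5 genes was called by limma, and 1 of them, Necab1, had an unadjusted p under 0.05; 1.82% of all probe sets were called. Necab1 was 0.91 ± 0.31 higher in contralateral knees (SE; 95% interval 0.28 to 1.53; adjusted p = 0.123), but both groups spanned a similar range. Leaving out the sham knee of rat C3, the highest of its group at 9.38, the difference was 1.20 with an adjusted p of 0.0146, and without the contralateral knee of K10 its adjusted p was 0.0444. For the other genes the intervals included 0: −0.21 to 1.07 for Myoc (difference 0.43), −0.84 to 0.20 for Fndc1 (−0.32), −0.67 to 0.34 for Lgals12 (−0.16) and −0.50 to 0.41 for Nnat (−0.05).

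Sham knees and sham nodes give the tissue level without a bleed. A gene chosen for a steep fall in bled knees is likely to be high in unbled ones, so these differences are described and not tested. All 5 genes were higher in sham knees than in sham nodes, and no value of the one overlapped the other. The share of all probe sets without such overlap was not counted, so nothing is read from it. By limma 52.5% of all probe sets were called, 8911 of them higher and 10365 lower in sham knees. Myoc differed by 5.82 ± 0.27 (SE; 56.5-fold), with nodes at 4.28 to 5.56. Fndc1 differed by 5.22 ± 0.21 (37.3-fold), with nodes at 5.42 to 6.28. Lgals12 differed by 4.71 ± 0.22 (26.1-fold) and Nnat by 4.60 ± 0.31 (24.2-fold). Necab1 differed least of the 5, by 1.94 ± 0.29 (3.84-fold). Whether both tissues were normalized together is not given in the sources used here, and these differences rest on that.

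The knee falls had no counterpart of that size in the draining node. Myoc, Fndc1, Lgals12 and Necab1 were already low in contralateral nodes, with means of 5.23, 6.07, 6.44 and 5.94. All 11 contralateral node values of Myoc were below the median of their array. A fall as large as in the knee could hardly be measured from such levels, so its absence is not read as a difference between the tissues. Lgals12 lay at 5.60 to 6.38 in bled, 5.63 to 6.97 in contralateral and 5.61 to 6.81 in sham nodes, and Fndc1 at 5.39 to 6.08, 5.83 to 6.54 and 5.42 to 6.28. Myoc lay at 4.17 to 5.81, 4.90 to 5.60 and 4.28 to 5.56, and Necab1 at 4.79 to 6.36, 5.15 to 6.86 and 4.94 to 6.21. All these node groups overlapped. Between the bled and contralateral nodes none of the 5 genes was called (adjusted p = 1.00 for each); limma called 0 probe sets in all, 0% of 36685, and 860 had an unadjusted p under 0.05. Lgals12 differed by −0.40 ± 0.15 (SE; unadjusted p = 0.0137; lower in 10 of 11 rats) and Fndc1 by −0.26 ± 0.10 (unadjusted p = 0.0118; lower in 9 of 11 rats), and neither passed the adjustment. Myoc was lower in 5 of 11 rats, and Nnat and Necab1 in 7 of 11. Between bled and sham nodes, again 0 of 5 were called by limma and 0 had an unadjusted p under 0.05, beside 4.26% of all probe sets; the adjusted p ran from 0.336 to 0.962.

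Contralateral nodes differed from sham nodes in 1 of the 5 genes, beside 5.03% of all probe sets. Nnat was measured at 7.70 to 9.07 in contralateral nodes (median 8.36, mean 8.40 ± 0.41, SD, n = 11) and at 6.05 to 8.54 in sham nodes (median 7.46, mean 7.34 ± 0.67, n = 9). Bled nodes spread more widely, from 6.09 to 9.26 (median 8.06). The groups overlapped, and the difference was 1.06 ± 0.32 (SE; 95% interval 0.41 to 1.71; 2.08-fold higher; limma adjusted p = 0.0468). The call was lost without any 1 of 16 of the 31 node arrays (adjusted p 0.0521 to 0.0922): the contralateral nodes of K3 to K9 and K11, the bled node of K6 and the sham nodes of C1 to C7. It was also lost without the sham nodes C2 and C9 together, which stood apart from the other nodes (adjusted p = 0.103), and the second probe set of Nnat differed by −0.15 and was not called. Adipocyte genes moved with it: 11 of the 22 were called higher in contralateral nodes, with a median difference of 0.68, and the fat index was 7.97 ± 0.24 (SD) there and 7.29 ± 0.42 in sham nodes. With the fat index as a covariate the difference of Nnat was −0.06 (adjusted p = 0.951). In the knee Nnat differed little between contralateral and sham, and the limma test of knee against node, −1.10 ± 0.41 (SE; unadjusted p = 0.0086), missed the threshold (adjusted p = 0.149). None of the 5 genes was called in that interaction, which uses the same unbled knees, beside 2.03% of all probe sets.

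The fat index itself was low in bled knees, at 8.49 ± 0.40 (SD, n = 11) against 10.72 ± 0.21 in contralateral (n = 11) and 10.78 ± 0.27 in sham knees (n = 7). All 22 adipocyte genes were called lower in bled than in contralateral knees, beside 4233 of all 18166 genes, with a median difference of −2.13. Their steepest falls were those of Lep, which encodes the adipocyte hormone leptin (−3.54), and Acvr1c, a receptor of the TGF-beta superfamily (−3.46). All 5 chosen genes were further below the contralateral knees than any of these 22, and 3 of the 5 were further below the sham knees, which follows in part from how they were chosen. Which genes follow fat within a group of knees is a separate measurement, made here as a slope. It is the change in the log2 value of a gene for each log2 unit of the fat index. Each group has a separate level. In knees the slopes and the correlations below use the bled knees, whose levels the choice used. Their tests are thus not fully independent of the choice.

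**Figure D3:**
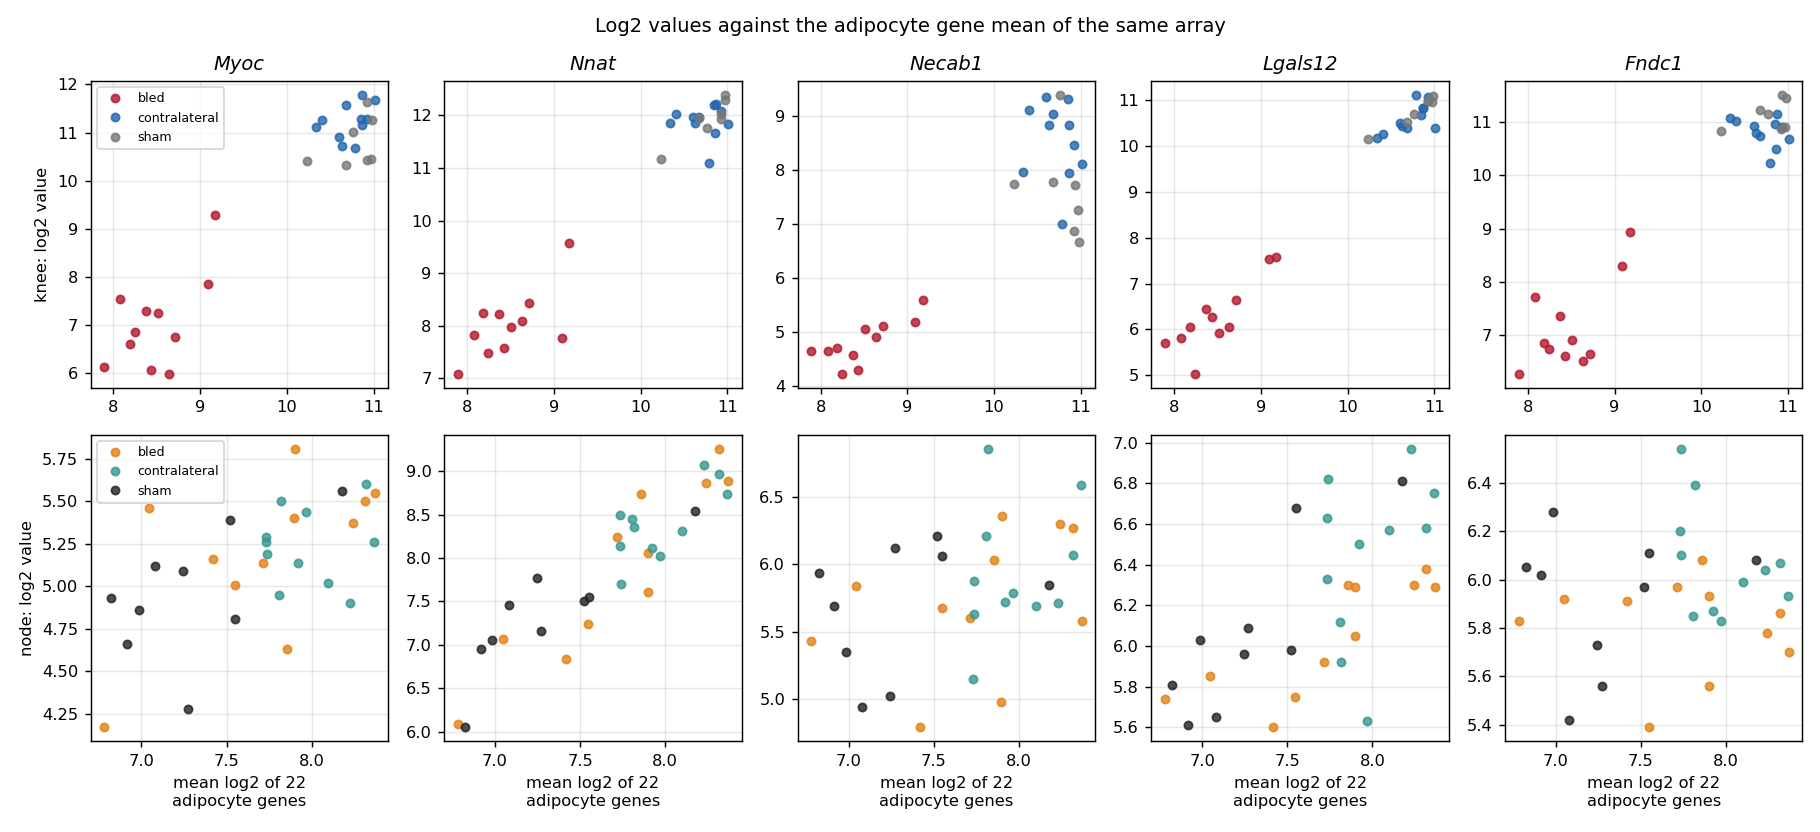
Log2 value of each of the 5 genes (vertical axis) against the mean log2 value of 22 adipocyte genes on the same array (horizontal axis), with knees in the upper and nodes in the lower row, coloured by group. Lgals12 follows the fat index inside knee groups, Nnat follows it closely in nodes, and bled and unbled knees share no level of the fat index.

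In the knee Lgals12 alone of the 5 had a called slope, 1.43 ± 0.19 (SE; limma adjusted p = 6.36e-05), where 0.39% of all probe sets were called. Myoc had a slope of 1.21 ± 0.35 (adjusted p = 0.200), Nnat of 0.92 ± 0.24 (adjusted p = 0.105), Fndc1 of 0.88 ± 0.30 (adjusted p = 0.356) and Necab1 of 0.20 ± 0.41 (adjusted p = 0.946). By limma 4 of the 5, all but Necab1, had an unadjusted p under 0.05, as had 2757 of 36685 probe sets. Genes of the index itself were not all called: Lep, Retn, Acvr1c, Dgat2 and Mrap had limma adjusted p of 0.0670 to 0.715. The rest of the index was called. A missing call is therefore not read as a gene that does not follow fat. Leaving out 1 array at a time, the slope of Lgals12 was called in all 29 fits and ran from 1.31 to 1.52. In the bled knees alone it was 1.62 (adjusted p = 0.109), and without the bled knees it was 1.10 (adjusted p = 0.0521). That of Nnat was called without the bled knee of K10 (adjusted p = 0.0184) or the contralateral knee of K10 (adjusted p = 0.0469). For muscle RNA, 0 of 5 genes had a called limma slope on the mean of the muscle genes in the knee, and 0 had an unadjusted p under 0.05, beside 2.24% of all probe sets.

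In the node, the slope was called for Nnat (1.62 ± 0.16, SE; limma adjusted p = 8.59e-08) and Lgals12 (0.59 ± 0.13; adjusted p = 0.0342), beside 0.237% of all probe sets. An unadjusted limma p under 0.05 was found for 3 of the 5 genes, beside 2262 of 36685 probe sets. The slope of Nnat was called in all 31 fits without 1 array, and that of Lgals12 in 22 of them. The second probe set of Nnat, at only 4.44 to 5.97 in nodes, had a slope of 0.22 (adjusted p = 0.895). The 9 arrays without any 1 of which Lgals12 was not called were the contralateral node of K6, the bled nodes of K2, K4, K5, K7 and K9 and the sham nodes of C1, C6 and C8 (adjusted p 0.0502 to 0.230). The call of Lgals12 was also lost with array weights (adjusted p = 0.0503), with a fat index of 3 genes (0.0530) and without the sham nodes C2 and C9 (0.0571). Myoc (0.47 ± 0.15; adjusted p = 0.413), Necab1 (0.41 ± 0.21; adjusted p = 0.834) and Fndc1 (−0.05 ± 0.11; adjusted p = 0.999) were not called. For muscle RNA in the node limma called 0 of the 5 genes, 0 at an unadjusted p under 0.05, and 0.0273% of all probe sets.

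Correlations with the fat index inside single groups, 30 in all, were computed beside the slopes; each p is from a permutation test, two-sided and exact for sham groups, and adjusted p are over the 30. Lgals12 correlated with r = 0.85 in bled knees (rho = 0.83; permutation p = 0.00124 for r and 0.00286 for rho; adjusted p = 0.0131 and 0.0286; n = 11). Its r in sham knees was 0.98 (rho = 0.86; exact permutation p = 0.00159 and 0.0238; adjusted p = 0.0131 and 0.102; n = 7). Without the 2 arrays farthest from the median fat index these values were 0.55 and 0.95. Nnat correlated in bled nodes with r = 0.92 (rho = 0.91; permutation p = 4e-05 and 0.00021; adjusted p = 0.0012 and 0.0063; n = 11), and with r = 0.88 without the 2 farthest. In knees the r of Nnat was 0.67 in the bled group (rho = 0.52; permutation p = 0.0221 and 0.106; adjusted p = 0.0664 and 0.227; n = 11) and 0.68 without the 2 farthest. It was 0.92 in the sham group (rho = 0.79; exact permutation p = 0.00794 and 0.0480; adjusted p = 0.0298 and 0.160; n = 7), and 0.84 without the 2 farthest, but −0.02 in the contralateral group (rho = 0.08; permutation p = 0.944 and 0.823; n = 11). Contralateral samples gave lower values for Lgals12 too, with r = 0.66 in knees (rho = 0.54, permutation p = 0.0284 and 0.0919, adjusted p = 0.0709 and 0.212, n = 11). In contralateral nodes r was 0.36 (rho = 0.23, permutation p = 0.282 and 0.506, adjusted p = 0.439 and 0.584, n = 11). It was 0.82 in bled (rho = 0.83, n = 11) and 0.85 in sham nodes (rho = 0.80, n = 9). The fat index varied least in contralateral samples. Its SD there was 0.21 in knees (bled 0.40, sham 0.27) and 0.24 in nodes (bled 0.51, sham 0.42). A narrow range can by itself lower r.

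In bled knees K1 and K10 were the 2 arrays farthest from the median fat index, and the relation of Myoc and of Fndc1 to fat rested on them. Myoc correlated with r = 0.61 (rho = 0.33; permutation p = 0.0444 and 0.326; adjusted p = 0.103 and 0.425; n = 11), and with r = −0.08 without them. Fndc1 went from r = 0.66 (rho = 0.37; permutation p = 0.0278 and 0.259; adjusted p = 0.0709 and 0.400; n = 11) to −0.14. Necab1 correlated in bled knees with r = 0.77 (rho = 0.73; permutation p = 0.00531 and 0.0152; adjusted p = 0.0228 and 0.0760; n = 11) and with r = 0.49 without them. In contralateral knees the r of Necab1 was −0.19 (rho = −0.31, permutation p = 0.589 and 0.356, adjusted p = 0.679 and 0.430, n = 11). In sham knees it was −0.32 (rho = −0.75, exact permutation p = 0.418 and 0.0663, adjusted p = 0.504 and 0.190, n = 7). Without the 2 farthest arrays of each group, r was −0.39 and −0.94, the latter over 5 arrays. The knee slope of Necab1 on the fat index thus pools groups whose r had opposite signs.

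With the fat index as a covariate in the fit of all knees, the difference of bled from contralateral knees was −1.13 for Lgals12, −1.46 for Myoc, −1.68 for Fndc1 and −1.80 for Nnat. That of Necab1 was −3.27, close to its −3.72 without the covariate. Against sham knees the values were −1.21, −0.96, −1.95, −1.79 and −2.35 in the same order. The highest fat index of a bled knee was 9.18 and the lowest of any other knee 10.23, so these values extend each slope across a range that no array covers, and they are given as a description.

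The genes whose deviations from the group means were most like those of each chosen gene were sought among genes above the median level of the tissue. Over the 29 knees, the nearest genes to Myoc were Fndc1 (r = 0.88), Dpt, which encodes the matrix protein dermatopontin (0.82), and Tnxa-ps1, a pseudogene of the tenascin-X locus (0.81), whose probe set may share sequence with that locus. Those nearest to Fndc1 were Tnxa-ps1 (0.91), Col14a1, a fibril-associated collagen (0.89), and Dpt (0.88). Without the bled knees of K1 and K10 the r of Myoc with Fndc1 was 0.74 over 27 arrays, whereas that of Lgals12 with Fndc1 went from 0.58 to −0.01 and that of Lgals12 with Myoc from 0.53 to 0.06. In the node, where both are low, Myoc and Fndc1 had an r of 0.10.

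The genes nearest to Lgals12 in the knee were Slc36a2, an amino acid transporter (r = 0.86), Thrsp, a regulator of fat synthesis (0.85), and C1qtnf1, a secreted relative of adiponectin (0.85). In the 31 nodes they were Acsl1, which activates fatty acids (0.75), Pparg, the main transcription factor of fat cells (0.75), and Car3, a carbonic anhydrase (0.71). Nnat in the node was nearest to Plin1, the coat protein of lipid droplets (0.90), Thrsp (0.89) and Car3 (0.86). In the knee it was nearest to Adam23 (0.70), Tnfaip2 (0.66) and Zfp423, a transcription factor of fat cell precursors (0.66). Necab1 was nearest to Spock2, a matrix proteoglycan (0.79), the RNA-editing enzyme Adarb1 (0.75) and Prex2 (0.74) in the knee, and its r with the other chosen genes was 0.08 to 0.30. In the node Necab1 was nearest to Tnfsf10 (0.80), Aif1l (0.79) and Hbp1 (0.79), Myoc to Itgb4 (0.69), Sptbn1 (0.62) and Sned1 (0.62), and Fndc1 to Zxdc (0.66), Fndc3a (0.66) and Med23 (0.65). These are descriptions over arrays that share RNA makeup and array quality.

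Relatives of the chosen genes by family were measured on the same arrays. That all of them differed less between bled and contralateral knees than the chosen genes did follows from the choice of large decreases. Over all 18166 genes, 4698 were called higher and 4233 lower in bled knees, with a median difference close to 0. Of 12 measured olfactomedin genes, 7 were called lower in bled than in contralateral knees and 0 higher; Olfml1, a secreted olfactomedin-like protein, differed by −2.96 ± 0.17 (SE; limma adjusted p = 8.82e-15), Olfml2a by −1.45 and Olfml3 by −0.83. Of 9 other galectin genes, 2 were called higher and 2 lower: Lgals3, the galectin of macrophages, rose by 0.89 and Lgals1 by 0.32, while Lgalsl differed by −0.78 and Lgals8 by −0.16 (0.07 and not called against sham knees). Nothing particular to the family is read from these counts. Of 9 other Fndc genes, 3 were called lower, with Fndc5, the precursor of irisin, at −0.67. Necab2 (−0.06) and Necab3 (0.06) were not called. Nnat lies inside the span of Blcap in the RefSeq annotation, and Blcap differed by −0.34 ± 0.08 (adjusted p = 0.000659).

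**Figure D4:**
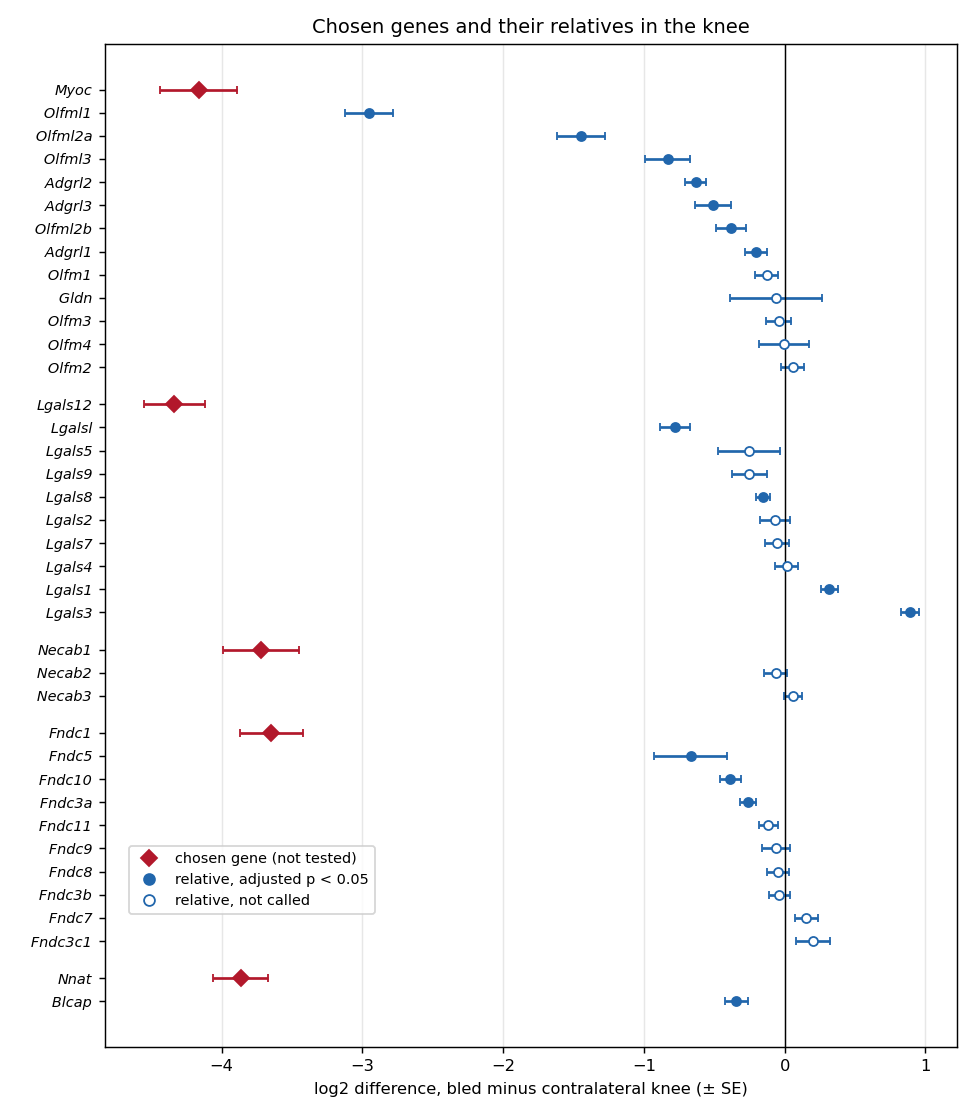
Difference in log2 value between bled and contralateral knees (horizontal axis; bars are SE, n = 11 per group) for the 5 chosen genes, which were not tested, and for genes of the same families and the host locus of Nnat. Filled circles were called at an adjusted p under 0.05; the chosen genes lie to the left of all their relatives, which their choice as large decreases fixes, and of the relatives Olfml1 differs most, at −2.96.

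Among 16 measured imprinted genes, the class to which Nnat belongs, 8 were called lower in bled than in contralateral knees and 1 higher. Their median difference was −0.19. Over all 18166 genes, 4233 were called lower and 4698 higher. Zim1 (−2.03 ± 0.25, SE) and Plagl1, a growth-restraining transcription factor (−1.74), fell most, and Igf2r, the receptor that clears IGF2, rose (0.23), though not against sham knees (−0.01; adjusted p = 0.921).

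Markers of the other cells in the tissue were counted in bled against contralateral knees. The counts of this and the next paragraph stand beside 4233 lower and 4698 higher of all 18166 genes. Of 16 fibroblast progenitor genes, 10 were called lower and 0 higher (median −0.95), among them Igfbp6, which binds insulin-like growth factors (−2.58), and Efemp1, a fibulin (−1.83). Of 14 tendon genes, 10 were called lower and 0 higher (median −1.43), led by the proteoglycan Omd (−5.16) and the cartilage protein gene Cilp (−2.98). Of 20 genes of the synovial lining and its fibroblasts, 13 were called lower, with Clic5 at −2.68 and Htra4 at −2.59, and 3 higher, among them the hyaluronan synthases Has2 (2.87) and Has1 (1.29). Against sham knees Has2 differed by 2.34 and Has1, which was not called, by 0.45 (adjusted p = 0.192).

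Of 12 Schwann cell genes, 7 were called lower, with S100b at −2.77 and Cdh19 at −1.34, and 1 higher, Erbb3 (1.43). S100b also followed the fat index, with a slope of 1.19 in knees (adjusted p = 8.45e-05) and 0.64 in nodes (adjusted p = 0.0319). S100b was not alone in this. The knee slopes of the macrophage gene C1qa (0.56, limma adjusted p = 0.00819) and the imprinted gene Plagl1 (0.79, 0.0484) were called too. Named after their values were seen, Sox10 (−0.07) and the myelin gene Mbp (−0.20) were not called, nor against sham knees (−0.06 and −0.10), where Cnp was called higher (0.42). Neuronal genes went both ways, 4 of 14 lower (Rtn1 −1.71, Stmn2 −1.34) and 3 higher (Tubb3 2.27, Syp 0.45). These counts are near the shares over all genes, and nothing is read from them. Against sham knees Stmn2 was not called (−0.77, limma adjusted p = 0.0745). Of 11 endothelial genes 9 were called lower, with Cldn5, a tight junction protein, at −1.57, and of 10 pericyte and smooth muscle genes 9, with the smooth muscle myosin Myh11 at −2.25. Skeletal muscle genes mostly did not pass the test: 1 of 15, Pygm (−2.09), was called lower, and 0 of 15 against sham knees. Of 10 neutrophil genes 8 were called higher (median 2.39), led by S100a8 (3.78) and S100a9 (3.45), and 1 lower, Mpo, the myeloperoxidase of neutrophil granules (−1.98). Macrophage genes went both ways: 6 of 11 were called higher, with Cd14 at 1.39 and Cd68 at 0.88, and 4 lower, with Vsig4 at −2.13 and C1qa at −1.32. Of 11 B and T cell genes 8 were called higher, with Cd2 at 3.54. The part of these cell types in the falls of the 5 genes was not tested beyond the fat and muscle slopes given above.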

How the data were processed

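The authors deposited log2 expression values. Per the submitters' processing notes, these were made by RMA with the program Affymetrix Expression Console 1.4.46. The values span 1.62 to 14.03 for 36685 probe sets on 60 arrays; no column repeated another. RMA's options, array batch, scan date and genome build are not given in the sources used here. Groups came from the sample labels.

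Each tissue was fitted with its 3 groups in limma 3.58.1 (R 4.3.3, the package data.table in version 1.17.8), over all probe sets without a filter, with Benjamini-Hochberg adjustment and a call at an adjusted p under 0.05. Differences between tissues used 1 fit of all 60 arrays. Slopes used the mean of 22 adipocyte or 15 skeletal muscle genes with group intercepts. Permutation tests took 1e+05 resamples for groups of 10 or more and were exact for smaller ones. Fits were tested on simulated data. Python 3.11.15, numpy 2.4.6, pandas 2.3.3, scipy 1.17.1 and matplotlib 3.10.9 were also used.

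Gene symbols came from the array annotation, which gave 1 symbol to 18511 probe sets, several to 575 and listed none for 17599. Of 242 entries in the gene lists, 215 were measured. The genes, lists and tests were chosen with earlier results of these data known. Named genes are the 5 chosen, measured relatives of them, up to 4 genes per list (the 2 steepest called rises and falls in bled against contralateral knees) and the 3 nearest genes of each chosen gene per tissue. Per the labels, each bled rat gave both a bled and a contralateral sample. The deviations of its sides from their group means had a mean correlation of 0.07 in knees and 0.23 in nodes; fits without that block are reported. Replicates are separate rats. The number of arrays limits the precision. Alternatives were array centring, quantile normalization, array weights, the rat as a block, the fat covariate, a fat index of 3 genes, other probe sets and leaving out arrays.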

Additional observations from a re-analysis of the deposited data

Results flagged for a closer look

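Necab1 in the sham knee of rat C3 was measured at a log2 value of 9.38, while the other 6 sham knees lay between 6.67 and 7.77. The gap to the nearest sham knee was 0.594 of the range of the group, above Dixon's limit of 0.568 for 7 arrays. Of 10 groups of values tested in this way it was the single one past its limit, and chance passes such a limit in about 1 of 20 groups.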

How the results depend on the processing

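Of the values of single genes under an alternative, 554 kept their direction and side of the threshold or moved little, 29 reversed, 10 moved, 10 lost and 2 gained a call. The 554 include the genes other than Nnat under its other probe set, a setting that leaves their values unchanged by design. With the rat as a replicate block no call of the 5 genes changed, and Nnat in contralateral against sham nodes kept its difference of 1.06 (limma adjusted p = 0.0397). The cause of the changes below was not tested, beyond fewer arrays in some fits. The median knee difference of the 5 genes, −3.86, was −1.68 with the fat index as a covariate. The count called between contralateral and sham knees was 0, and 0 to 1 leaving out 1 array. Between contralateral and sham nodes it was 1, and 0 with the fat covariate, with array weights, with the other probe set of Nnat or without the arrays that stood apart; leaving out 1 array it was 0 to 1. The count of slopes on the fat index in knees was 1, and 0 in bled knees alone or without them, fits added after seeing the data; leaving out 1 array it was 1 to 2. In nodes it was 2, and 1 with array weights, a fat index of 3 genes, the other probe set of Nnat or without the arrays that stood apart; leaving out 1 array it was 1 to 2.

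Counts over all probe sets moved too. Between contralateral and sham nodes 1844 were called, and 1137 with only those groups in the fit, 1063 without the arrays that stood apart and 11 with the fat covariate. Between bled and sham nodes 1561 became 857, 926 and 225 in the same order. Between contralateral and sham knees 666 became 381 with only those groups, 408 without the array that stood apart and 402 with array weights. The test of knee against node gave 746, and 480 without the arrays that stood apart. Slopes on the fat index in knees gave 143, and 13 in bled knees alone and 56 without them. Slopes on muscle in nodes gave 10, and 2 to 6 with array weights, without dim probe sets or without the arrays that stood apart.

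Reversed values were as follows. In contralateral against sham nodes the fat covariate gave −0.057 for Nnat, −0.059 for Myoc, −0.041 for Lgals12 and −0.035 for Necab1, and the other probe set of Nnat −0.15. In bled against sham nodes Nnat was −0.17 with the covariate and with its other probe set. Necab1 there was −0.16 with the covariate, −0.086 with array weights, −0.13 without the arrays that stood apart and −0.065 to 0.12 leaving out 1 array. Lgals12 there was 0.029 with centred or quantile-normalized arrays and −0.084 to 0.066 leaving out 1. Myoc in bled against contralateral nodes was 0.081 with the covariate and −0.093 to 0.071 leaving out 1. Nnat in contralateral against sham knees was 0.0093 with the covariate, 0.013 with centred arrays and −0.17 to 0.034 leaving out 1. The test of knee against node for Myoc was −0.015 with array weights. Without bled knees the slope on the fat index was −0.84 for Necab1 and −0.0088 for Fndc1; that of Necab1 was −0.045 to 0.30 leaving out 1 array. On muscle genes, the other probe set of Nnat gave −0.035 in knees. In nodes Fndc1 was 0.095 with array weights, 0.11 without the arrays that stood apart and −0.40 to 0.031 leaving out 1; leaving out 1, Lgals12 was −0.15 to 0.59 and Nnat −0.034 to 1.06. Background light limits what can be read of falls near the lowest values.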
